A study of Homo sapiens with 24 samples.

Results

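Serine and one-carbon metabolism is covered here by 10 genes that encode its enzymes: PHGDH, PSAT1, PSPH, SHMT1, SHMT2, MTHFD1, MTHFD1L, MTHFD2, ALDH1L2 and PCK2. They were found by gene symbol, each matching 1 row, among the 61541 genes of the deposited 48 h table and the 19836 genes of the deposited 72 h table. All 10 passed the filter on low values in both tables.

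The cells were U2932, a human line of diffuse large B-cell lymphoma grown in RPMI medium, and the reagents were directed at the transcription factor MYC. The untreated arm was PBS, labelled wild type, with 6 libraries at 48 h and 5 at 72 h. PNA2 is a gamma peptide nucleic acid, in which bases hang on a chain like that of a protein in place of sugar and phosphate. It was given at a labelled dose of 8 mM, a unit that is in doubt, with 4 libraries at 48 h and 5 at 72 h. An siRNA at 500 nM was brought in by electroporation, with 4 libraries at 48 h. Both treated arms carry a genotype label of MYC knockdown. No electroporated control is named, so an siRNA difference also holds any effect of the electroporation. All 4 siRNA libraries carry a cell line entry other than U2932, against their treatment text. The labels do not say whether replicates were separate cultures, so the p-values measure only the spread between these libraries, which may be technical.

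Cells can make serine from the glycolytic intermediate 3-phosphoglycerate through PHGDH, PSAT1 and PSPH, in that order. SHMT2 in mitochondria and SHMT1 in the cytosol then move a carbon unit from serine to tetrahydrofolate and leave glycine. Mitochondrial MTHFD2 and MTHFD1L oxidise that unit and release it as formate, and cytosolic MTHFD1 takes formate up again for purine and thymidylate synthesis. In B-cell lymphoma and other dividing cells the mitochondrial branch is a main supplier of one-carbon units, and MYC and the stress-response factor ATF4 are both known to raise several of these genes.

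The 48 h values are counts that had been adjusted per gene and batch before deposit, and are given here as scaled values, that is, divided by a library scale. They are not reads. The largest step that fitted all values of a gene within a batch was 0.833 to 0.849 units in batch A and 1.47 to 3.31 units in batch B. Such a step can hold more than 1 read, so it is an upper limit for the value of 1 read. If 1 step is 1 read, differences between libraries were stretched in batch B and narrowed in batch A. Batch A held controls 1, 2 and 4, PNA2 1 and 2 and all 4 siRNA libraries. Batch B held control 3, the unnumbered controls 6 and 7, and PNA2 3 and 4. The 72 h values are normalized read counts. Levels at 48 h and 72 h come from separately normalized tables and are not compared with each other.

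Summed over genes, the 48 h libraries ran from 11.12 M (a control) to 16.17 M (siRNA replicate 1), and the 72 h libraries from 8.22 M to 13.69 M reads. MYC itself had 3588, 3967, 4184 and 3610 scaled units in the siRNA libraries, below all 6 controls at 5453 to 7648, and its log2 change was -0.81 (SE 0.10, limma adjusted p = 0.00032). In the PNA2 libraries at 48 h, which carry the same knockdown label, it had 7181, 7318, 7862 and 8907 units, none below the median control (log2 change 0.24, SE 0.09, limma adjusted p = 0.096). MYC was called higher without PNA2 replicate 2 (0.28, limma adjusted p = 0.0403) and within batch B (0.45, limma adjusted p = 0.00874). At 72 h MYC ran from 826 to 2845 normalized reads in the controls and from 459.9 to 2032 in PNA2, with a limma adjusted p of 0.79. All 5 B-cell markers given here (MS4A1, CD79A, CD79B, CD22 and PAX5) were expressed in every group. The erythroid and megakaryocyte markers summed to at most 7.01, with PF4 and PPBP at 0 in every library, although the tissue label reads bone marrow. T and NK markers summed to 2.52 to 77.4, with CD3D and CD2 at 0 throughout, and myeloid markers to 7.55 to 45.0. CD8A, the 1 T-cell marker that could be tested at 48 h, had 8.91, 70.2, 29.4 and 14.5 scaled units in PNA2 and 7.43 to 18.6 in siRNA. Its controls had 0.184 to 1.31 units in batch A and 12.04 to 19.8 in batch B. CD8A was called higher in PNA2 (2.12, limma adjusted p = 0.0348) and in siRNA (2.15, limma adjusted p = 0.0498), and its part in the results was not tested. Without PNA2 replicate 2 the PNA2 difference was 1.16, not called, and the siRNA difference 2.53, called. The stroma and epithelium markers summed to 127.4 to 448, with COL1A1, EPCAM and PECAM1 above 10 on average in every group.

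PNA2 replicate 2 at 48 h stood apart and is shown apart from the other PNA2 libraries for the 10 genes. It was above all 13 other libraries for 8 of the 10 genes and below all 13 for the other 2, SHMT1 and MTHFD1. Over all 14136 genes tested, the same library was above all others for 23.6% and below all others for 23.7%. Its 5 B-cell markers summed to 25540 scaled units, against 40714 to 42305 in the other PNA2 libraries and 34563 to 38135 in the controls, and their part in the results below was not tested. PNA2 replicate 1, of the same batch, was outside all other libraries on either side for 18.3% of genes, replicate 3 for 8.73% and replicate 4 for 10.5%.

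Per kilobase of annotated exon, SHMT2 was the most abundant of the 10 transcripts in the 48 h controls, at 1057 ± 90.9 scaled units per kb (SD, n = 6). MTHFD2 followed at 691 ± 39.2 and PSAT1 at 627 ± 73.8, and their ranges overlapped. MTHFD1 stood at 411 ± 45.1 and PHGDH at 294 ± 36.1, again with overlapping ranges. PSPH had 149 ± 11.1 and MTHFD1L 118 ± 13.3 units per kb, also overlapping, and SHMT1 had 68.3 ± 5.57. PCK2 at 34.6 ± 10.1 and ALDH1L2 at 13.7 ± 13.1 were the lowest and overlapped with each other. At 72 h the control order began with the same 4 genes, SHMT2 at 515, MTHFD2 at 415, PSAT1 at 407 and MTHFD1 at 276 normalized reads per kb. It ended with PCK2 at 50.9 and ALDH1L2 at 9.37. Mitochondrial SHMT2 thus had the highest level per length at both times. The length is that of all annotated exons merged, so a gene with many alternative exons, such as PHGDH with 9217 bases, is placed lower than its main transcript would be.

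**Figure D1:**
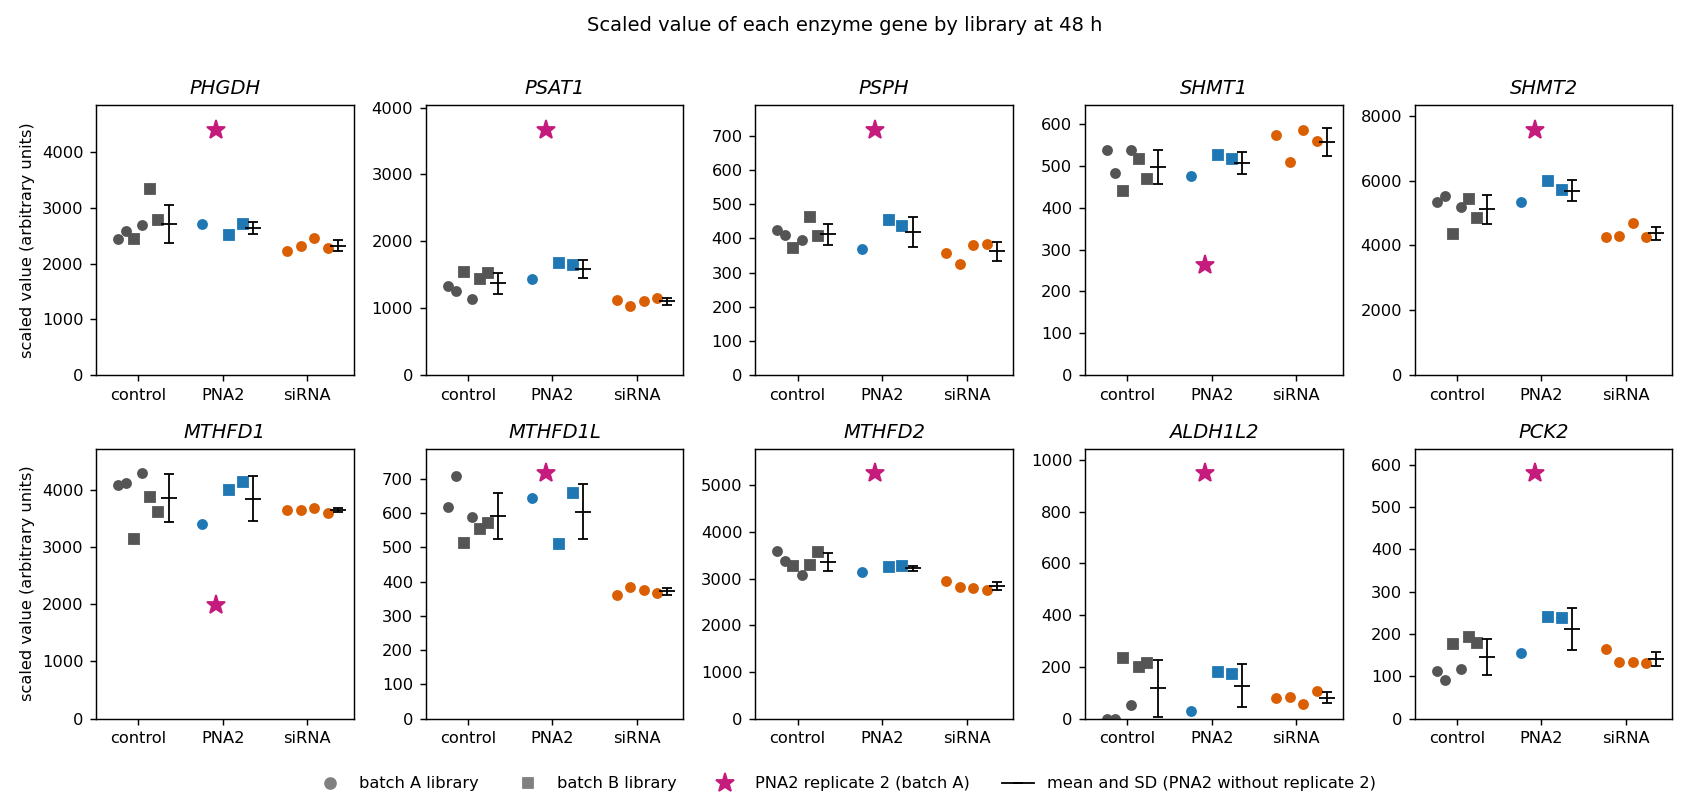
Scaled value of each of the 10 genes (y axis, arbitrary units, from 0) in every 48 h library, by treatment (x axis). Circles are batch A and squares batch B libraries, the star is PNA2 replicate 2, and the bars give mean and SD with replicate 2 left out of PNA2. The star lies above all other libraries in 8 panels and below them in the SHMT1 and MTHFD1 panels, and the 4 siRNA libraries lie below all controls for MTHFD1L and MTHFD2.

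PNA2 at 48 h was compared with PBS to ask how the enzyme genes stood after the peptide nucleic acid. In that comparison 1 of the 10 genes, PCK2, was called higher and none lower (limma, adjusted p under 0.05), where 8.11% of all genes tested were called higher and 8.57% lower. At an unadjusted p under 0.05, 4 were higher and 0 lower, and the share of all genes at that unadjusted threshold was not counted. Without PNA2 replicate 2 the count was the same, 1 higher and 0 lower, where 8.58% and 9.29% of all genes were called. No gene of the 10 had PNA2 libraries that lay wholly above or below the controls. Over all genes tested 5.23% lay wholly above and 4.99% wholly below. Leaving out replicate 2 left the 10 overlapping, beside 7.51% and 7.05% of all genes that did not. The median log2 change of the 10 was 0.18 with all 4 PNA2 libraries and 0.05 without replicate 2, beside medians of 0.00 over all genes tested with all 4 libraries. In bulk RNA, a change in the mix of cells and a change in RNA per cell cannot be told apart.

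PHGDH (chromosome 1, 119648411 to 119744226, forward strand, GRCh38) encodes phosphoglycerate dehydrogenase, which opens the serine pathway. Its scaled values were 2433 to 3332 in the 6 controls, with a median of 2640. PNA2 replicates 1, 3 and 4 had 2706, 2508 and 2702 units, all within the control range, and replicate 2 had 4400 units. The log2 change was 0.15 (SE 0.13, limma adjusted p = 0.44), and -0.04 without replicate 2.

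PSAT1 (chromosome 9, 78297143 to 78330093, forward), the phosphoserine aminotransferase of the next step, had 1135 to 1547 units in the controls, median 1387. PNA2 replicates 1, 3 and 4 had 1438, 1681 and 1644 units, and replicate 2 had 3669. Replicates 3 and 4 were a little above the highest control, whereas replicate 2 was 2.95 times the mean of the batch A controls. The log2 change was 0.52 (SE 0.19, limma adjusted p = 0.0744) with all 4 libraries and 0.17 without replicate 2 (adjusted p = 0.0598), neither of which passed.

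PSPH (chromosome 7, 56011051 to 56051604, reverse), the phosphatase that releases serine, had 373 to 464 units in the controls, median 408. PNA2 replicates 1, 3 and 4 had 368, 452 and 435 units and replicate 2 had 718. Outside replicate 2 the groups lay over each other, and the log2 change of 0.22 (SE 0.14, limma adjusted p = 0.29) became 0.01.

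SHMT2 (chromosome 12, 57229327 to 57234935, forward), the mitochondrial serine hydroxymethyltransferase, had 4357 to 5518 units in the controls, median 5270. PNA2 replicates 1, 3 and 4 had 5348, 5989 and 5724 units and replicate 2 had 7571. Of these, only replicate 1 was inside the control range. The log2 change of 0.26 (SE 0.09) narrowly missed the threshold at a limma adjusted p of 0.0510, and without replicate 2 it was 0.17 (adjusted p = 0.112).

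SHMT1 (chromosome 17, 18327860 to 18363563, reverse), the cytosolic counterpart, went the other way in replicate 2. That library had 264 units, against 476, 526 and 516 in PNA2 replicates 1, 3 and 4 and 439 to 538 in the controls, median 499. It stood at 0.508 times the mean of the batch A controls. Across the 4 libraries the log2 change was -0.20 (limma adjusted p = 0.36), and without replicate 2 it was 0.04.

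MTHFD1 (chromosome 14, 64388031 to 64463457, forward), the cytosolic enzyme that loads formate onto tetrahydrofolate, showed the same direction in that library. Replicate 2 had 1986 units, 0.477 times the batch A control mean, while replicates 1, 3 and 4 had 3391, 3997 and 4134 and the controls 3135 to 4286, median 3977. Within batch A the PNA2 difference was -0.68 on the log2 scale (limma adjusted p = 0.0272), where 6.43% of all genes were called higher and 7.52% lower. Within batch B it was 0.21 (limma adjusted p = 0.151), where 5.49% were called higher and 6.76% lower. The 2 batches thus gave opposite signs, and batch A holds replicate 2.

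MTHFD2 (chromosome 2, 74198562 to 74217565, forward), the mitochondrial dehydrogenase and cyclohydrolase, had 3087 to 3585 units in the controls, median 3335. PNA2 replicates 1, 3 and 4 had 3147, 3245 and 3260 units, inside the control range, and replicate 2 had 5258. Its log2 change was 0.11 (SE 0.11, limma adjusted p = 0.50), and -0.07 without replicate 2.

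MTHFD1L (chromosome 6, 150865549 to 151101887, forward), which releases formate from the mitochondrial pathway, was the member with the least displacement in replicate 2. Its values were 645, 716, 511 and 658 units in PNA2 replicates 1 to 4, beside 512 to 708 in the controls, median 580. Replicate 2 was just above the highest control, at 1.12 times the batch A control mean. The log2 change was 0.09 (SE 0.08, limma adjusted p = 0.46).

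ALDH1L2 (chromosome 12, 105019784 to 105084577, reverse) is the mitochondrial formyltetrahydrofolate dehydrogenase, which burns formyl units to carbon dioxide. Its controls split by batch, with 0, 0 and 51.2 units in controls 1, 2 and 4 of batch A and 234.0, 200.4 and 213.8 in control 3 and the unnumbered controls of batch B. The deposited values of controls 1 and 2 were -20.5 and -26.3 and were set to 0. PNA2 replicates 1, 3 and 4 had 31.3, 181 and 171 units and replicate 2 had 949. In batch B the values spanned only 13 steps. In batch A they spanned 1266 steps up to a deposited 1028 in replicate 2, where siRNA replicate 4 was next at 128. Because 2 controls are at the floor, no fold is given for this gene at 48 h, and its limma adjusted p was 0.147.

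PCK2 (chromosome 14, 24094053 to 24110598, forward), mitochondrial phosphoenolpyruvate carboxykinase, links oxaloacetate to the glycolytic intermediates that feed serine synthesis. Controls 1, 2 and 4 of batch A had 113, 92.2 and 118 units and control 3 and the unnumbered controls of batch B had 177, 193 and 178. PNA2 replicate 1 of batch A had 154 units, replicates 3 and 4 of batch B had 241 and 238, and replicate 2 of batch A had 579. Every PNA2 library was thus above all controls of its own batch, although replicate 1 was below the batch B controls. Each batch holds only 2 PNA2 and 3 control libraries, and the share of all genes with that pattern was not counted. PCK2 rose by 0.93 on the log2 scale (SE 0.28, limma adjusted p = 0.0320), and by 0.44 without replicate 2 (SE 0.12, adjusted p = 0.0132). The call was lost without control 1 (0.90, adjusted p = 0.062), control 2 (0.83, adjusted p = 0.069) or control 4 (0.92, adjusted p = 0.053), and within batch B (0.40, adjusted p = 0.081).

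**Figure D2:**
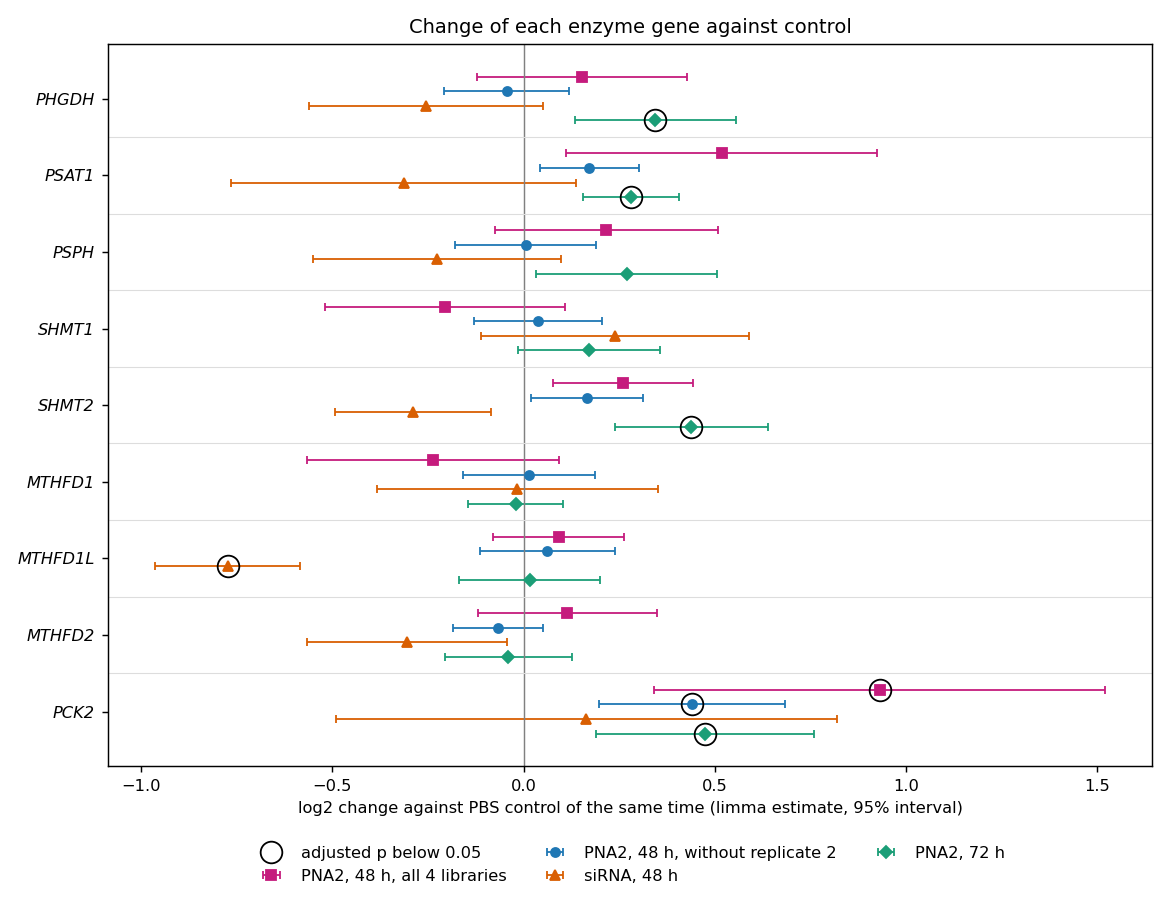
Log2 change against the PBS controls of the same time (x axis, limma estimate with its 95% interval) for 9 of the 10 genes (y axis), with ALDH1L2 left out because 2 of its 48 h controls are at 0. Black rings mark an adjusted p under 0.05. For PNA2 at 48 h the estimates without replicate 2 lie near 0 for most genes and at 0.44 for PCK2, the siRNA ring is on MTHFD1L at -0.77, and the 72 h rings are on PHGDH, PSAT1, SHMT2 and PCK2.

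In replicate 2, cytosolic SHMT1 and MTHFD1 lay low and mitochondrial SHMT2 and MTHFD2 high, which shows in the ratio of each pair. These are ratios of values and not of levels per length. The SHMT2 to SHMT1 ratio was 10.3 ± 0.639 in the controls (SD, n = 6), 11.2 ± 0.150 in PNA2 replicates 1, 3 and 4, and 28.7 in replicate 2. In the siRNA libraries it was 7.86 ± 0.431 (SD, n = 4), from 7.44 to 8.40, and below every control, of which the lowest was 9.67. The MTHFD2 to MTHFD1 ratio was 0.884 ± 0.118 in the controls, 0.843 ± 0.0747 in the 3 PNA2 libraries, 0.779 ± 0.0230 in siRNA and 2.65 in replicate 2. Replicate 2 also had the highest PCK2 value of the 14 libraries, 5.38 times the batch A control mean.

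**Figure D3:**
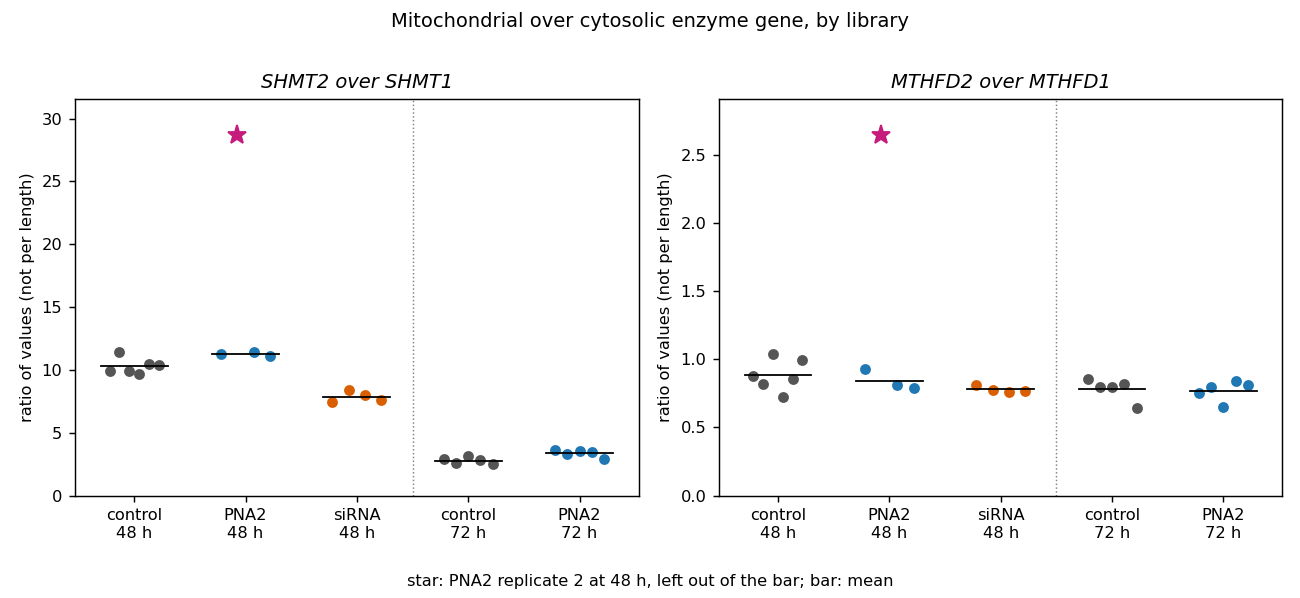
Ratio of the mitochondrial to the cytosolic gene (y axis, from 0, not per length) in each library, for SHMT2 over SHMT1 on the left and MTHFD2 over MTHFD1 on the right, by treatment and time (x axis). Bars are means without the starred PNA2 replicate 2 at 48 h, which has 28.7 and 2.65. The siRNA libraries have a lower SHMT2 to SHMT1 ratio than every 48 h control.

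The siRNA arm asked how the same genes stood when MYC transcript was lower. It shares its controls with the PNA2 comparison at 48 h. Of the 10 genes 1, MTHFD1L, was called lower and none higher, where 8.13% of all genes tested were called lower and 9.3% higher. At an unadjusted limma p under 0.05, 3 were lower and 1 higher, with no share of all genes counted at that threshold. All siRNA libraries lay below all controls for 2 genes, MTHFD1L and MTHFD2, against 6.89% of all genes tested, and no gene of the 10 lay wholly above, against 8.72%. The median log2 change of the 10 was -0.24, beside 0.00 over all genes. The summed B-cell markers moved with the arm, at 41561 to 43572 scaled units in siRNA and 34563 to 38135 in the controls, and their part in these results was not tested.

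MTHFD1L had 361, 384, 376 and 367 scaled units in the 4 siRNA libraries, against 512 to 708 in the controls. The siRNA values lay close together and well under the lowest control. MTHFD1L fell by 0.77 on the log2 scale (SE 0.09, limma adjusted p = 0.00011), to 0.585 times the control level. Within batch A alone the difference was -0.77 (limma adjusted p = 0.00123). Over all settings tried the change ran from -0.855 to -0.460 and the adjusted p from 6.89e-06 to 0.0304.

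The promoter of MTHFD1L holds the CACGTG E-box, the sequence that MYC and its partner MAX are known to bind. RefSeq promoter windows (250 bases before to 50 after a start site, GRCh38.p14) were found for 7 of the 10 genes, in 10 sequences. They were searched on both strands for CACGTG and for TGATGNAA, the core of the composite element that ATF4 is known to bind with its partners. CACGTG is its own reverse complement, and the 2 motifs can overlap by at most 2 bases. Of 35116 promoters in the table, 7.26% held CACGTG, 3.62% held TGATGNAA and 0.179% held both. In 3 of the 4 MTHFD1L windows both motifs were found. These windows overlap and hold the same site of each motif, so they are not separate matches. The MTHFD1 window held CACGTG from base -15 to base -10. The matches are shown because MTHFD1L is the gene that fell with the siRNA and MTHFD1 the related cytosolic gene that did not pass. Each is printed on the forward strand with the motif in capitals.
MTHFD1L, chr6:150866323-150866346: gcccggctcCACGTGcgcagccgg
MTHFD1L, chr6:150866348-150866373: cgccggctcTGATGCAAtcgcgccgg
MTHFD1, chr14:64388329-64388352: gtccctaagCACGTGggttgggtt
The windows of PHGDH, PSAT1, SHMT1, MTHFD2 and PCK2 held neither set of letters, and a match is a description of the sequence alone.

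MTHFD2 had 2958, 2825, 2802 and 2759 units in siRNA, all below the lowest control at 3087. The log2 change was -0.30 (SE 0.12, limma adjusted p = 0.10). SHMT2 had 4272, 4281, 4687 and 4253 units, below every batch A control (5203 to 5518) but not below control 3 of batch B at 4357 in the third library. Its log2 change was -0.29 (SE 0.10), with a limma adjusted p of 0.0501.

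In the serine synthesis steps the siRNA values lay at the bottom of the control range or under it, and no gene passed. PHGDH had 2227, 2323, 2462 and 2279 units and overlapped the controls in 1 library, with a log2 change of -0.26 (limma adjusted p = 0.24). PSAT1 had 1131, 1034, 1102 and 1157 units, with a change of -0.31 (limma adjusted p = 0.34). PSPH had 358, 324, 382 and 383 units, with a change of -0.23 (limma adjusted p = 0.34).

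Neither gene of the cytosolic pair passed. SHMT1 had 574, 510, 586 and 560 units in siRNA, of which 3 lay above the highest control at 538 and 1 inside the control range (log2 change 0.24, limma adjusted p = 0.35). MTHFD1 had 3641, 3646, 3682 and 3594 units, inside the control range, with a change of -0.02 (limma adjusted p = 0.96) and a 95% interval from -0.38 to 0.35. These MTHFD1 values lay below every control of batch A, the batch of the siRNA libraries. Within that batch the change was -0.19 (limma adjusted p = 0.39). PCK2 had 164, 133, 134 and 130 units, above the batch A controls and below those of batch B (log2 change 0.16, limma adjusted p = 0.76). ALDH1L2 had 79.0, 81.8, 57.2 and 109 units, again between the batch A and batch B controls.

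The spread that PNA2 replicate 2 adds is shared by all 48 h comparisons, since the model pools it. The library also enters the batch term, so it moves the siRNA changes themselves. With it in the fit, left out and within batch A, the change was -0.02, -0.12 and -0.19 for MTHFD1. For PSAT1 it was -0.31, -0.18 and -0.16, and for PCK2 0.16, 0.36 and 0.39. MTHFD1L stayed at -0.77, -0.76 and -0.77. With that library left out of the fit, a setting chosen after the data were seen, 4 genes were called lower with siRNA and 2 higher, where 14.8% and 16.1% of all genes were. The 4 were MTHFD1L (-0.76), SHMT2 (-0.25, limma adjusted p = 0.0124), MTHFD2 (-0.23, adjusted p = 0.0046) and PSAT1 (-0.18, adjusted p = 0.0406). The 2 were PCK2 (0.36, adjusted p = 0.0268) and ALDH1L2, whose batch A controls are at or near the floor. Against the batch A controls alone 5 genes lay wholly lower (PSPH, SHMT2, MTHFD1, MTHFD1L and MTHFD2) and 2 wholly higher (ALDH1L2 and PCK2), where 20.3% and 20.1% of all genes did. In a fit within batch A, where 8.45% of all genes were called lower and 9.04% higher, MTHFD1L alone of the 10 passed.

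PNA2 and siRNA were also compared directly at 48 h. Called higher in PNA2 were 4 of the 10 genes and called lower none, where 11.5% of all genes were called higher and 12.4% lower (limma). Unadjusted, 7 were higher and 1 lower at p under 0.05, with no share of all genes counted at that threshold. In all, 5 genes had PNA2 libraries that lay wholly above the siRNA libraries (PHGDH, PSAT1, SHMT2, MTHFD1L and MTHFD2), against 13.6% of all genes, and none lay wholly below, against 14.2%. MTHFD1L was higher by 0.87 (SE 0.10, limma adjusted p = 2.8e-05) and SHMT2 by 0.55 (SE 0.10, limma adjusted p = 0.00152). PSAT1 was higher by 0.83 (SE 0.23, limma adjusted p = 0.0154) and MTHFD2 by 0.42 (SE 0.13, limma adjusted p = 0.0312). Without PNA2 replicate 2 the differences were 0.82 for MTHFD1L, 0.42 for SHMT2 and 0.35 for PSAT1, all called, and 0.17 for MTHFD2, which was not (limma adjusted p = 0.083). In that fit 13.5% of all genes were called higher and 14.6% lower. Leaving out any 1 siRNA library also ended the MTHFD2 call, at adjusted p from 0.053 to 0.074. PNA2 was added to the culture and the siRNA electroporated, so reagent and delivery cannot be told apart.

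At 72 h PNA2 was compared with PBS in 5 libraries each, and here 4 of the 10 genes were called higher and none lower, where 12.1% of all genes tested were called higher and 11.7% lower. Unadjusted, 5 were higher and 0 lower at p under 0.05, with no share of all genes counted at that threshold. The 4 called were SHMT2, PSAT1, PHGDH and PCK2. For 3 of them, PHGDH, PSAT1 and SHMT2, every PNA2 library was above every control, against 10% of all genes tested, and none of the 10 lay wholly below, against 9.18%. The quasi-likelihood test of edgeR on the recovered reads called the same 4 genes higher and none lower, where 11.6% of genes were called higher and 12% lower. The median log2 change of the 10 was 0.22, beside -0.01 over all genes. The summed B-cell markers were also higher in PNA2, at 24689 to 29274 normalized reads against 20220 to 21916, and their part in these results was not tested. CD79A and CD79B were called higher (0.77 and 0.48, limma adjusted p = 0.00048 and 0.00539) and MS4A1 lower (-0.34, limma adjusted p = 0.0164).

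SHMT2 had 2510, 2575, 2613, 2356 and 2400 normalized reads in the controls and 3628, 3235, 4129, 3136 and 2872 in PNA2. The lowest PNA2 library was clear of the highest control. SHMT2 rose by 0.44 on the log2 scale (SE 0.09, limma adjusted p = 0.0064), or 1.36-fold.

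PSAT1 had 903, 843, 905, 894 and 904 reads in the controls and 1077, 1099.6, 1085, 1043 and 1104 in PNA2. Its SDs of 26.7 and 24.5 reads were small beside the gap between the groups. PSAT1 rose by 0.28 (SE 0.06, limma adjusted p = 0.0058), or 1.22-fold. With SHMT2 it kept its call under every alternative tried at 72 h.

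PHGDH had 1048, 1061, 975, 889.7 and 1001 reads in the controls and 1395, 1172, 1515, 1153 and 1118 in PNA2, with no overlap. PHGDH rose by 0.34 (SE 0.10, limma adjusted p = 0.0235). Its call ended without PNA2 replicate 1 (0.31, adjusted p = 0.058), control 3 (0.34, adjusted p = 0.051) or control 4 (0.31, adjusted p = 0.059). PSPH, the last step of the same pathway, had 175, 204, 199.6, 232 and 176 reads in the controls and 213, 214, 252, 259 and 252 in PNA2. Control 4 lay inside the PNA2 range, and the log2 change of 0.27 (SE 0.11) did not pass (limma adjusted p = 0.0905).

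PCK2 had 225, 204, 194, 236 and 208 reads in the controls and 312, 260, 361, 228 and 341 in PNA2. PNA2 replicate 4 was inside the control range and the other 4 were above it. PCK2 rose by 0.47 (SE 0.13, limma adjusted p = 0.0221), and that call ended without PNA2 replicate 1 (0.46, adjusted p = 0.050) or control 3 (0.44, adjusted p = 0.053).

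None of MTHFD2, MTHFD1L and MTHFD1, the 3 MTHFD genes of the 10, passed at 72 h. MTHFD2 had 2150, 2056, 2052, 2105 and 1751 reads in the controls and 1819, 2020, 1806, 2099.5 and 2093 in PNA2, a change of -0.04 with a 95% interval from -0.21 to 0.13 (limma adjusted p = 0.73). MTHFD1L had 461, 496, 470.0, 406 and 459.9 reads in the controls and 438, 483, 515, 420.3 and 463 in PNA2, a change of 0.02 with an interval from -0.17 to 0.20 (limma adjusted p = 0.90). MTHFD1 had 2504 to 2721 reads in the controls and 2416 to 2769 in PNA2, a change of -0.02 with an interval from -0.14 to 0.10. The upper bounds of all 3 intervals lie below the 0.28 that PSAT1 showed, though the genes were not tested against each other. The 95% interval of PSAT1, from 0.16 to 0.41, overlapped that of MTHFD1L and not those of MTHFD2 and MTHFD1.

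SHMT1 had 874, 988, 831, 845 and 952 reads in the controls and 1013, 977, 1178, 902 and 994 in PNA2, with overlapping groups (log2 change 0.17, limma adjusted p = 0.16). The SHMT2 to SHMT1 ratio was 2.79 ± 0.244 in the controls and 3.35 ± 0.277 in PNA2 (SD, n = 5 each), and the ranges of 2.52 to 3.14 and 2.89 to 3.58 overlapped. The MTHFD2 to MTHFD1 ratio was 0.783 ± 0.0819 and 0.771 ± 0.0739. ALDH1L2 had 72.8, 91.8, 72.4, 68.1 and 93.3 reads in the controls and 105, 52.1, 40.5, 68.3 and 97.2 in PNA2, the widest spread relative to the mean of the 10 in PNA2, and a change of -0.21 (SE 0.25, limma adjusted p = 0.57).

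**Figure D4:**
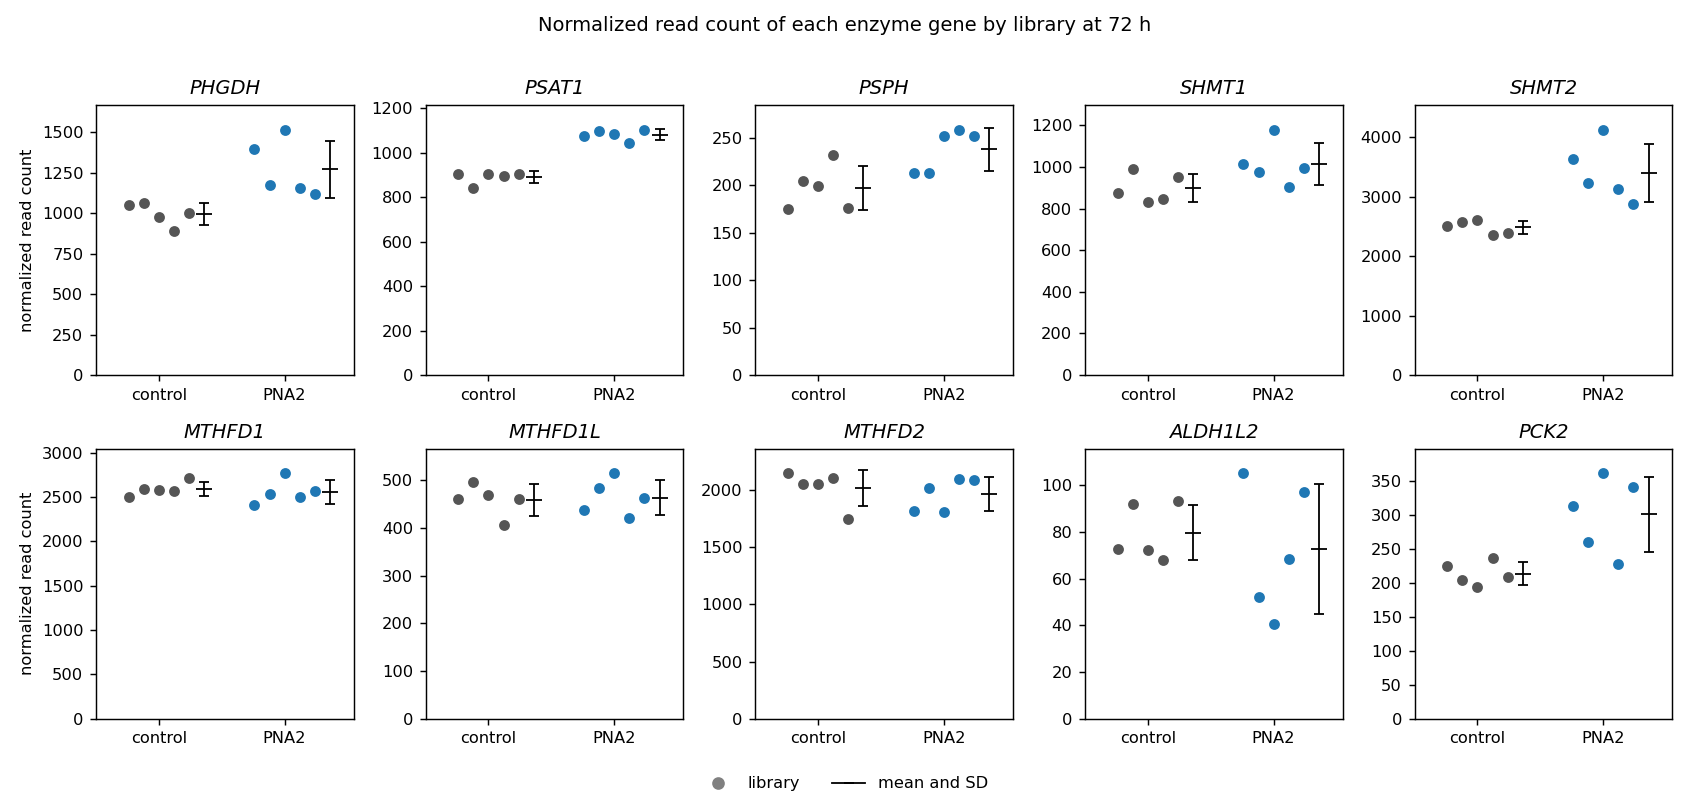
Normalized read count (y axis, from 0) of each of the 10 genes in every 72 h library, by treatment (x axis), with mean and SD over 5 libraries. The PNA2 libraries lie above all controls for PHGDH, PSAT1 and SHMT2, and the groups overlap in the other 7 panels.

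Genes around the pathway were taken from 4 lists. Their counts stand beside these shares of all genes tested, called higher and lower. For PNA2 at 48 h the shares were 8.11% and 8.57%, and for siRNA 9.3% and 8.13%. For PNA2 against siRNA they were 11.5% and 12.4%, and at 72 h 12.1% and 11.7%. Without PNA2 replicate 2 the 48 h shares were, in the same order, 8.58% and 9.29%, 16.1% and 14.8%, and 13.5% and 14.6%. Of 19 folate enzymes and carriers tested, PNA2 at 48 h had none called higher and 1 lower, MTRR (-0.28, limma adjusted p = 0.0320), which keeps methionine synthase active. Its call ended without replicate 2 (-0.22, adjusted p = 0.068), replicate 3 or control 1, 2 or 3. Without replicate 2 the counts were 2 higher (MTR and SFXN2, named after their values were seen) and 0 lower. With siRNA 2 were higher and 2 lower, and with PNA2 replicate 2 left out of that fit 2 were higher and 7 lower. The folate carrier SLC19A1 fell by 0.62 (limma adjusted p = 0.00364) and FPGS, which adds glutamates to folate, fell by 0.48 (limma adjusted p = 0.00446). SLC46A1, another folate carrier, rose by 0.68 (limma adjusted p = 0.0059) and GGH, which removes the glutamates, rose by 0.45 (limma adjusted p = 0.0297). Without rescaling the SLC19A1 and FPGS calls of siRNA against control ended. The GGH call ended without control 1 or 2 or siRNA replicate 2, 3 or 4, at adjusted p up to 0.119. Direct comparison gave 2 higher in PNA2 (SLC19A1 by 0.61 and MTR by 0.36) and 2 lower (SLC46A1 by -0.58 and GGH by -0.52). Without PNA2 replicate 2 these were 0.74, 0.43, -0.58 and -0.47, all called, and the SLC46A1 call ended without PNA2 replicate 1. The counts without PNA2 replicate 2 were 6 higher and 2 lower. At 72 h SLC19A1 rose by 0.35 (limma adjusted p = 0.0398), the purine enzyme ATIC rose by 0.25 (limma adjusted p = 0.0472) and MTRR fell by 0.38 (limma adjusted p = 0.00795). The SLC19A1 call ended without control 1, 4 or 5 or PNA2 replicate 1, 2 or 3, at adjusted p up to 0.0926. The ATIC call ended without any 1 library other than PNA2 replicate 4, at adjusted p up to 0.109, and with edgeR on the recovered reads (adjusted p = 0.0534).

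Of the genes for glycine cleavage and serine use, 8 were tested at 48 h and none was called against control in either arm (limma). Without PNA2 replicate 2, SPTLC2 was called higher with PNA2 (0.20, limma adjusted p = 0.0493) and with siRNA (0.20, limma adjusted p = 0.0384). In that fit GCAT was called lower with siRNA (-0.53, limma adjusted p = 0.00971). Both were named after their values were seen. With all libraries and at an unadjusted p under 0.05, PNA2 had 0 higher and 1 lower and siRNA 2 higher and 1 lower. The share of all genes at that unadjusted threshold was not counted. Between the arms 1 was called, GCAT, which makes glycine from threonine breakdown (0.61 higher in PNA2, limma adjusted p = 0.0187). That difference was 0.78 without PNA2 replicate 2, and its call ended without PNA2 replicate 1 or siRNA replicate 1. At 72 h 3 of 9 were higher with PNA2 and none lower, where 12.1% of all genes tested were called higher and 11.7% lower. They were GLDC, the glycine decarboxylase (0.85, limma adjusted p = 0.043), SRR, serine racemase (0.47, adjusted p = 0.0187), and GCAT (0.38, adjusted p = 0.0264). The GLDC call ended without control 1, 3 or 5 or PNA2 replicate 1, 2, 3 or 5, at adjusted p up to 0.102. The GCAT call ended without control 1, 3, 4 or 5 or PNA2 replicate 1, at adjusted p up to 0.0653. The median of the 9 was 0.25.

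In the methionine cycle and transsulfuration list of 7 genes tested at 48 h, MAT2A, which makes S-adenosylmethionine, was the 1 gene called lower with PNA2 (-0.41, limma adjusted p = 0.00382). Without replicate 2, 2 were called lower, MAT2A (-0.38) and CBS (-0.53, limma adjusted p = 0.0483), the latter named after its values were seen. Within batch A the MAT2A difference was -0.26 (limma adjusted p = 0.097). With siRNA 4 were lower and none higher: CBS, the first step of transsulfuration (-0.66, limma adjusted p = 0.0276), MTAP (-0.51, adjusted p = 0.0023), MAT2A (-0.50, adjusted p = 0.00203) and AHCY (-0.37, adjusted p = 0.0102). The CBS call ended without control 4 or siRNA replicate 2 or 4, at adjusted p up to 0.198 over all settings. AHCY and MTAP were higher in PNA2 than in siRNA, by 0.36 and 0.30. The MTAP call ended without any 1 siRNA library, PNA2 replicate 3 or 4, and within batch A, at adjusted p up to 0.378 over all settings. At 72 h CBS fell by 0.97 (limma adjusted p = 0.000565) and MAT2A fell by 0.67 (limma adjusted p = 0.000336), while MAT2B, the regulatory subunit, rose by 0.29 (limma adjusted p = 0.0142), out of 8 tested. Without rescaling the 48 h calls of MAT2A against control ended in both arms (-0.21 and -0.22 with no batch term), as did those of MTAP and AHCY with siRNA.

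ATF4 and genes known as its targets outside the 10 form the fourth list, of which 15 were tested. At 48 h the PNA2 median was 0.65 with all libraries and 0.15 without replicate 2. With all libraries 8 were higher and 0 lower at an unadjusted limma p under 0.05, with no share of all genes counted at that threshold. After adjustment only DDIT4 was called (0.59, limma adjusted p = 0.0327). Its call ended without replicate 2 (0.33, adjusted p = 0.0608), replicate 3 or 4 or control 1 or 3. Without replicate 2 TRIB3 was called higher (0.59, limma adjusted p = 0.0341) and SLC7A5 lower (-0.27, limma adjusted p = 0.0211), both named after their values were seen. With siRNA none was called (limma), and at an unadjusted p under 0.05 none was higher and 2 were lower, again with no share counted. With replicate 2 left out of that fit 5 were called higher (ATF3, DDIT3, SLC7A11, TRIB3 and SESN2) and 2 lower (CEBPB and ATF4), again named after their values were seen. Higher in PNA2 than in siRNA were CEBPB (1.98, limma adjusted p = 0.00878), DDIT4 (0.78, adjusted p = 0.0136) and ATF4 itself (0.74, adjusted p = 0.0275). Without replicate 2 these 3 differences were 0.94, 0.43 and 0.27, all still called, SLC7A11 and DDIT3 were called lower, and the median of the list went from 0.55 to -0.10. The ATF4 call ended without any 1 siRNA library. At 72 h 9 of the 15 were higher with PNA2 and none lower, with a median of 0.42. Over all genes tested 12.1% were called higher and 11.7% lower. The leading genes of the list were CHAC1 (0.93, limma adjusted p = 0.0103), TRIB3 (0.68, adjusted p = 0.000802), DDIT4 (0.56, adjusted p = 0.00131) and ATF5 (0.53, adjusted p = 0.019).

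The genes that followed the mean of the 10 most closely were found by Pearson correlation over the libraries of a table, given as a description. Over all 14 libraries at 48 h, with batch means removed, they were RNF41 (0.971), GPT2 (0.969), GORASP2 (0.962), PHC1 (0.962) and EEF2 (0.960). Without PNA2 replicate 2 the names were all different: DRAP1 (0.927), RFC2 (0.921), FKBP8 (0.920), RAC3 (0.919) and EPB41L4A-AS1 (0.917) over 13 libraries. Over the 10 libraries at 72 h they were CDK2 (0.972), ORAI1 (0.969), GINS2 (0.962), PLEKHO2 (0.962) and S100A11 (0.961). Within the 10 at 48 h, SHMT1 (-0.793) and MTHFD1 (-0.630) ran against the mean that holds them, and without replicate 2 both were positive, at 0.271 and 0.740.

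Some of the 10 genes share exon sequence with a gene on the other strand, and the sources used here do not say whether strand was used in counting, so their reads cannot be told apart. The overlap involves SHMT1, SHMT2, MTHFD1, MTHFD2 and ALDH1L2. The partners with the highest mean deposited value at 48 h were C12orf45 opposite ALDH1L2, at 393, and ZBTB25 opposite MTHFD1, at 311, sharing 145 and 178 exonic bases. For ALDH1L2 the partner is above the level of the gene itself. Named pseudogene copies of PSAT1, PSPH, SHMT1, MTHFD1 and MTHFD2 had mean deposited values of at most 5.24.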

How the data were processed

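RNA from 24 libraries was sequenced (RNeasy extraction, TruSeq stranded kits, NextSeq 500, per the labels). Tools named by the submitters' processing notes are HTSeq 0.11.0, SAMtools 1.7, HISAT2 2.2.1, DESeq2 and Trimmomatic, and the build is GRCh38. The extraction text names 48 h for every library, and the time entries were followed instead. The deposited 48 h table holds values of another unit, counts that the authors adjusted per gene and batch, with values below 0 in 5099 genes. Batches were read from ties among 9646 low genes (19.3% to 32.4% equal values within a batch, 0% between). The deposited 72 h signal is read counts divided by a size factor by the authors, and 100% of values were whole within 0.01 after multiplying back.

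At 48 h values below 0 were set to 0 and divided by a TMM scale (edgeR 4.0.16). Then limma 3.58.1 with a mean-variance trend (R 4.3.3) was fitted to log2(value + 1) with group and batch over all 14 libraries. At 72 h it was fitted to log2(deposited value + 1) with group alone. The size of a log2 change is uncertain for low genes. The added 1 can shrink it, and at 48 h controls at or near 0 in 1 batch can enlarge it, as for ALDH1L2. Genes needed a value of 10 or more in 4 libraries at 48 h (14136 genes) or 5 at 72 h (11985 genes). P-values were two-sided, Benjamini-Hochberg adjusted across the tested genes, and called under 0.05. The scripts were tested on simulated data.

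The 10 genes, the lists and the tests were chosen with earlier results of these data known. All 10 and MYC are named, with up to 4 called genes per list and comparison and the 5 genes most like the mean of the 10. Counting error limits low genes most. Gene positions and exon lengths are from GENCODE 29. Same-numbered libraries were checked for pairing, with correlations of deviations from -0.060 to 0.108, and numbers were not taken to pair them. The quasi-likelihood test of edgeR on the recovered 72 h reads, other scalings, pseudocounts, filters, batch terms and leaving out each library were tried. 1 marker gene of the lists is not reported here.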

Additional observations from a re-analysis of the deposited data

Results flagged for a closer look

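In 55 groups of 4 to 6 libraries, looked at for the 10 genes and MYC, 9 held a library far from the others by Dixon's criterion, where chance gives about 1 in 20. Of these, 4 were PNA2 replicate 2 at 48 h: PHGDH at 4400 scaled units, PSAT1 at 3669, MTHFD2 at 5258 and ALDH1L2 at 949. In siRNA at 48 h, replicate 3 was high for SHMT2 (4687) and replicate 1 high for PCK2 (164). At 72 h, control 2 was low for PSAT1 (843 normalized reads), control 5 low for MTHFD2 (1751) and PNA2 replicate 3 low for MYC (459.9).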

How the results depend on the processing

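Values are log2 changes or counts of the 10 genes. Shares of all genes called were counted only for the main fit, within a batch, without PNA2 replicate 2 at 48 h and with edgeR. Elsewhere a count that moved has no such share beside it and is not a result about the 10 genes. For PNA2 against control at 48 h, the 1 gene called higher became 3 without rescaling (with or without a batch term), 2 with a pseudocount of 10 or with the batches aligned on their controls, and 0 with only the 2 groups, within batch B or with the replicate block. It ran from 0 to 4 with each library left out: 0 without control 1, 2 or 4, 2 without unnumbered control 6, and 4 without PNA2 replicate 1 (PSAT1, PSPH, SHMT2 and PCK2). The 0 called lower became 1 within batch A (MTHFD1). Signs turned within batch B for PHGDH (-0.117), SHMT1 (0.141), MTHFD1 (0.21), MTHFD2 (-0.0512) and ALDH1L2 (-0.288). They also turned without PNA2 replicate 2, with ranges over left-out libraries of -0.0445 to 0.237 for PHGDH, -0.289 to 0.0379 for SHMT1, -0.349 to 0.0138 for MTHFD1 and -0.0665 to 0.218 for MTHFD2.

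For siRNA against control, the 0 called higher became 1 with a batch term and no rescaling, 2 with only the 2 groups and 2 with PNA2 replicate 2 left out of the fit, and ran from 0 to 1 over left-out libraries (1 without control 4). The 1 called lower became 2 with a pseudocount of 10 or aligned batches and 4 with only the 2 groups or without PNA2 replicate 2, and ran from 1 to 2 (2 without control 3). Signs turned for PSPH (0.0147) and MTHFD1 (0.129) with no batch term and no rescaling, MTHFD1 with a batch term and no rescaling (0.207) and over left-out libraries (-0.0396 to 0.0734), and PCK2 with no batch term (-0.000768). With a batch term and no rescaling the median of all genes moved to 0.194 for PNA2 and 0.219 for siRNA. In that fit 76.4% and 78.3% of all genes lay above 0.

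For PNA2 against siRNA, the 4 called higher ran from 3 to 7 over left-out libraries (7 without PNA2 replicate 1). The 0 called lower became 1 with only the 2 groups and 2 within batch A, and ran from 0 to 1 (1 without PNA2 replicate 1). MTHFD1 ran from -0.288 to 0.13. ALDH1L2 turned to 1.13 with no batch term, 1.12 with no batch term and no rescaling, 0.0305 with a pseudocount of 10, 1.11 with only the 2 groups, 1.11 within batch A and 0.589 with the replicate block. At 72 h the 4 called higher ran from 2 to 4 (2 without control 3 or PNA2 replicate 1), and MTHFD1 ran from -0.049 to 0.000278, MTHFD1L from -0.027 to 0.051 and MYC from -0.43 to 0.237. The cause of these moves was not tested.

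Replicate numbers were not taken to pair the libraries. With the replicate block, MTHFD1L stayed called in siRNA (-0.72) and 4 genes stayed called at 72 h. In PNA2 against siRNA, PHGDH became called (0.53) and PSAT1 and MTHFD2 lost their calls. No library left out ended the SHMT2 or PSAT1 call at 72 h, where edgeR on recovered reads called the same 4 genes. Of the other genes named from the lists, with MYC, calls were lost in 21 cases for PNA2 at 48 h, 26 for siRNA, 39 for PNA2 against siRNA and 32 at 72 h, and gained in 4, all of MYC for PNA2 at 48 h.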
